A study of Arabidopsis thaliana with 77 samples.

Results

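The calls described here are 750 single-base variants of centromere 1 in Arabidopsis thaliana. They lie between positions 14000000 and 16000000 of chromosome 1 (build TAIR10), were called with the same position and base in at least 2 of 5 libraries, and were given as heterozygous (0/1) and never as homozygous (1/1) wherever they were called. They are 750 of the 1630 variants of that window and of 15725 on chromosomes 1 to 5. From the authors' genotype calls, the members were chosen by the position, the genotype and the number of libraries of the calls. The lack of read shares near 100% and the sharing between libraries are properties of that choice and not findings.

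Genomic DNA was sequenced from rosette leaves of plants of the Columbia ecotype that were 4 weeks old, in paired reads. One library is labelled rdr1 rdr2 rdr6, and 4 libraries are of episuppressor lines named 2-69, 2-20, 3-72 and 3-75, with the genotype rdr1 rdr2 rdr6 ddm1. All 5 libraries thus share the 3 rdr mutations, there is 1 library per line, and no wild-type library is among them. In DDM1 (chromosome 5, 26648897 to 26653191), the change G26652152A was 1/1 in the 4 lines. Changes are written as the reference base, the position and the called base. The same site was 0/1 in the library labelled rdr1 rdr2 rdr6, with 9 of 19 reads, which goes against a label without ddm1. It is named by that label throughout, as the rdr-labelled library.

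Arabidopsis centromeres are built of long arrays of short tandem satellite repeats, in which many near-identical copies follow each other, flanked by pericentromeric DNA rich in transposons and pseudogenes. Both are kept methylated and silent. DDM1 is a chromatin remodelling ATPase needed for that methylation, and RDR1, RDR2 and RDR6 are RNA-dependent RNA polymerases that make double-stranded RNA for small RNA production. In a reference assembly, arrays of satellites are incomplete and hold gaps, and short reads from several copies can be placed on 1 copy. Within the window 163558 bases are unknown, in 21 runs.

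Scanning the reference of the window for the spacing at which bases repeat gave 2 tandem repeats, of 178 bp and 159 bp. The copy of each that holds most of these calls, among copies of nearly full length, is shown to give the setting of the calls, with the called positions in capitals. The 178-bp copy lies at chr1:15082762-15082939 and the 159-bp copy at chr1:14658363-14658521, both on the plus strand of TAIR10.
178-bp repeat: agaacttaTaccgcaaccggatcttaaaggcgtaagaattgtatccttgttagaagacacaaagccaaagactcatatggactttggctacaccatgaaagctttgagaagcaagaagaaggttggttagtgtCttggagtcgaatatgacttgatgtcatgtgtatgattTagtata
159-bp repeat: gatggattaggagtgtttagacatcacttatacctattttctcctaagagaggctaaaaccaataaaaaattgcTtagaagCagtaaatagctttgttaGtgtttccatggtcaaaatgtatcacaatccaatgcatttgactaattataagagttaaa

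The 4 sites whose read shares differed between libraries are shown as the 31 bases around the site (plus strand, the site in capitals), first with the reference base and then with the called base. They lie at chr1:15083756-15083786, chr1:15082755-15082785, chr1:15083232-15083262 and chr1:15082247-15082277.
T15083771A reference: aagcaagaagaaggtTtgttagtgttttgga
T15083771A called: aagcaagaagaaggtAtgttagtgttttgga
T15082770A reference: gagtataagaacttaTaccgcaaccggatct
T15082770A called: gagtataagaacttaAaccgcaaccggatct
T15083247C reference: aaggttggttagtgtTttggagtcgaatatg
T15083247C called: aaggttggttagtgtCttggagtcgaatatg
T15082262C reference: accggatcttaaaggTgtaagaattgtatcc
T15082262C called: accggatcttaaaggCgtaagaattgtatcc

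The label of centromere repeat variants holds only in part for these tandem repeats. Repeats of other spacings were not aligned. Of the 750 calls, 100 lay in copies of the 178-bp repeat, 133 in copies of the 159-bp repeat and 517 (68.9%) outside both. The first number depends on the unit used for the search. It was 173 and 156 with the next units by identity, and 438 (58.4%) and 462 (61.6%) of the calls then lay outside both repeats. Per known kilobase, the calls numbered 1.39 in the 178-bp repeat, 0.679 in the 159-bp repeat and 0.330 outside. The 159-bp unit aligned 1259 times on chromosome 1 and 140 times on chromosome 4, and on no other chromosome, whereas the 178-bp unit aligned on all 5. The 31 bases around the reference base occurred at more than 1 place of the assembly for 449 calls (59.9%, Wilson 95% interval 56.3 to 63.3). This count includes the calls inside either tandem repeat. The share was 74.9% for window variants called in 1 library and never 1/1. For shared variants never 1/1 it was 44.9%, 67.8%, 55.7% and 55.9% within 1 Mb of centromeres 2, 3, 4 and 5. On the chromosome arms it was 29.4% for such variants.

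The calls were unevenly spread and dense to the right of the window centre, where 557 of them lay. The 100 kb from 15100001 held 235 calls, the 100 kb before it 119 and the 100 kb after it 76. A smaller group of 55 lay between 14700001 and 14800000, and 52 of these were in the 159-bp repeat. These counts are not set per known base. The 100 kb from 14500001, 14600001 and 14700001 had 37002, 53915 and 50925 known bases. Right of the centre, no 100 kb had fewer than 99000. The 3 fullest windows of 10 kb began at 15130001 with 53 calls, at 15100001 with 48 and at 15090001 with 31. In these, 10, 14 and 5 calls lay in the 178-bp repeat and 0 in the 159-bp repeat. Of 189 windows of 10 kb with known bases, 102 held none of the calls. The first call lay at 14044445 and the last at 15845942. The median distance to the nearest other call was 110 bp, and 359 calls (47.9%) had another within 100 bp, so neighbouring calls can share reads. No position had more than 1 called base among them.

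**Figure D1:**
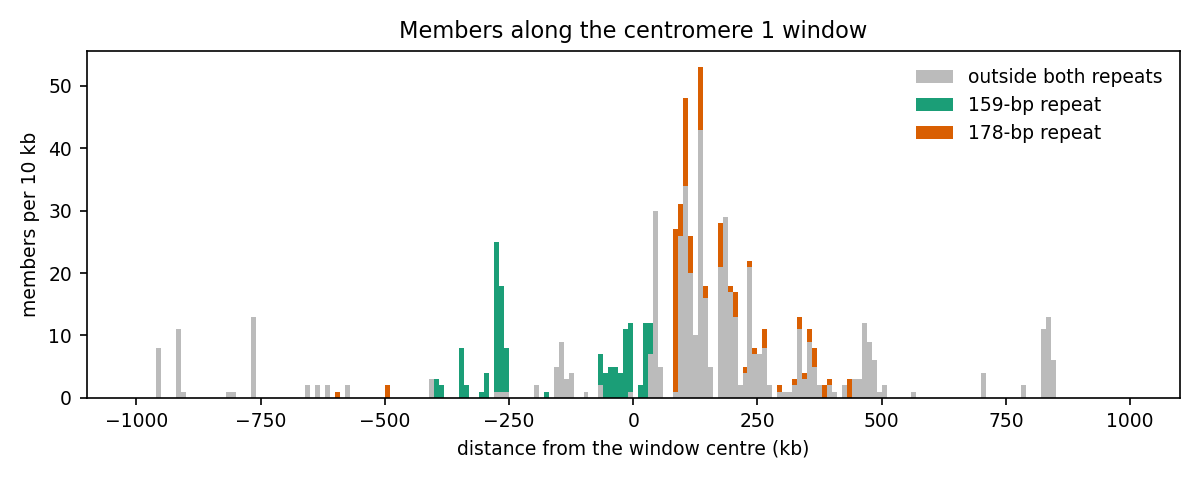
Calls per 10 kb (vertical axis, count) against the distance from the window centre in kb, stacked by repeat class. The fullest window holds 53 calls and most of its bar is outside both repeats, and the calls of the 159-bp repeat lie mainly left of the centre.

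Most calls were outside annotated genes. No annotated gene covered 560 of them (74.7%, on 59.8% of the known bases), and 143 lay in pseudogenes (19.1%, on 34.0% of the known bases). Protein-coding genes held 47 (6.27%, on 5.93% of the known bases). These were concentrated in AT1G40104 with 24 and AT1G39070 with 20, so the share does not describe protein-coding genes in general. Of the 47, 16 were in exons (2.13% of the calls, on 3.27% of the known bases), with 10 in AT1G40104 and 6 in AT1G39070. In all, 32 genes or pseudogenes held a call and 13 held 5 or more. The gene with most was AT1G40104 (chromosome 1, 15081952 to 15085893, plus strand), annotated as protein-coding with an uncharacterized product. It held 24 calls, 10 of them in exons, or 6.09 per kb, and 23 copies of the 178-bp repeat overlapped it. A run of unknown bases (15086046 to 15087045) begins 152 bp beyond its end. AT1G39070 (14733525 to 14745983), another protein-coding gene of uncharacterized product, held 20 calls, 0 of them called in all 5 libraries. The other genes named are pseudogenes with no function given. AT1G40117 (15180908 to 15186517) held 20 calls, AT1G40095 (15044573 to 15050812) 14, AT1G40105 (15139933 to 15142292) 14 and AT1G42365 (15827696 to 15833426) 12. AT1G40093 (15038153 to 15041098) held 11, AT1G37060 (14084522 to 14090143) 10, AT1G39910 (14849635 to 14852390) 7 and AT1G40115 (15179141 to 15179593) 5. The 5 calls of AT1G40115 and 9 of the 11 of AT1G40093 were called in all 5 libraries.

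The rdr-labelled library carried 554 of the calls, 2-69 carried 505, 2-20 carried 524, 3-72 carried 440 and 3-75 carried 475. The lines averaged 486 ± 36.7 (SD, n = 4 lines), and 3-72, which had the fewest, was also the shallowest library. With 1 library against 4, the smallest one-sided p of an exact permutation test is 0.2, so no difference between the genotypes was tested. The deposited lists hold called sites only, so a library without a call may have the reference base, few reads or a share that the caller did not pass.

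By number of libraries, 257 calls were made in 2, 170 in 3, 141 in 4 and 182 (24.3%) in all 5. The combinations with 4 libraries ran from 39 calls missing only from 3-72 to 17 missing only from the rdr-labelled library. Thus 17 calls were made in the 4 lines and not in it. Among calls in a pair of libraries alone, 39 were shared by the rdr-labelled library and 2-20 and 10 by 3-72 and 3-75, which were the extremes. The rdr-labelled library and 2-20 shared 398 calls, 71.8% of those of the first and 76.0% of those of the second. The lines 3-72 and 3-75 shared 296 calls, 67.3% and 62.3% of theirs.

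Calls made in more libraries had more reads and higher quality. Depth was set against the median depth of the same library at homozygous arm calls whose surrounding bases occur at 1 place of the assembly, here called the single-copy depth. The median ratio was 1.27 for calls in 2 libraries, 1.37 in 3, 1.70 in 4 and 2.15 in 5. The median quality score of the authors' caller rose alongside, from 16.2 to 21, 29.5 and 61.5. Just outside the rule, 730 window variants called in 1 library alone and never 1/1 had a median ratio of 1.13 and a median quality of 10.4. Since a call in more libraries needs enough reads in each, these are descriptions and were not tested.

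**Figure D2:**
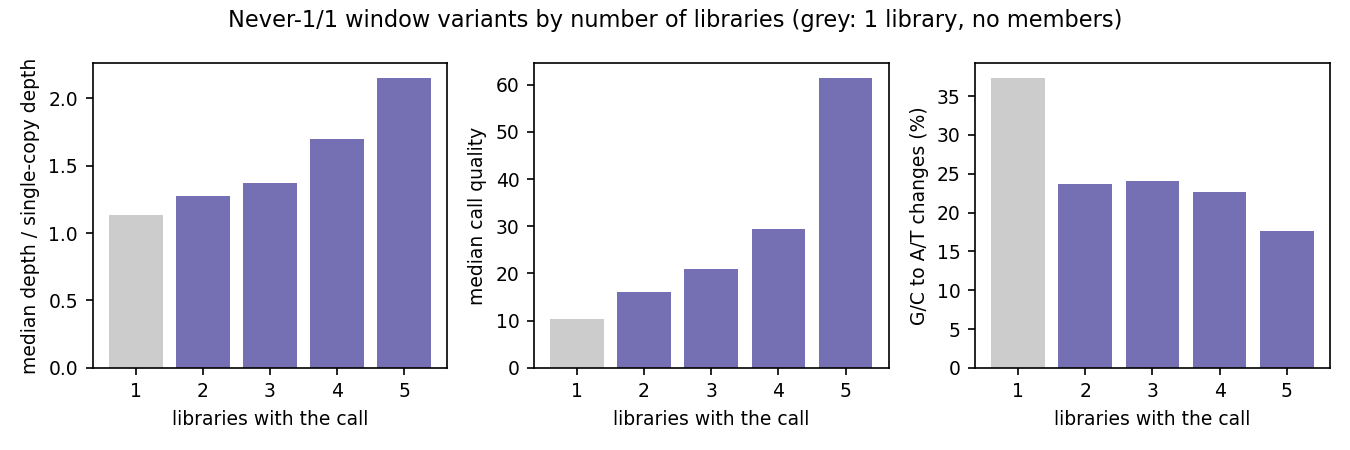
Median depth over single-copy depth, median call quality and percentage of G/C to A/T changes (vertical axes) against the number of libraries with the call. The depth ratio goes from 1.13 with 1 library (grey, outside the rule) to 2.15 with 5, and the G/C to A/T share from 37.4% to 17.6%.

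Read depth at the calls lay above the single-copy depth in every library. In the rdr-labelled library the median depth was 37 reads against a single-copy depth of 21, a ratio of 1.76. It was 40 against 26.5 in 2-69 (1.51), 27 against 15 in 2-20 (1.80), 19 against 11 in 3-72 (1.73) and 22 against 13 in 3-75 (1.69). The lines averaged 1.68 ± 0.124 (SD, n = 4). For shared variants never 1/1 within 1 Mb of centromeres 2, 3, 4 and 5, the means over the lines were 3.05, 2.15, 2.95 and 2.25. For those on the chromosome arms the mean was 1.49. Depth above the single-copy depth is thus not particular to centromere 1. The value of 1.68 depends on what is kept and on the reference. It was 1.39 against the median of all arm calls and 2.15 for calls made in all 5 libraries. Single calls covered a wide range of depth, from 8 to 1172 reads in the rdr-labelled library and from 3 to 667 in 3-72. Below 2 times the single-copy depth in every library that called them lay 404 calls (53.9%).

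The 159-bp repeat had the lowest depth of the classes in each library. In the 178-bp repeat the ratio was 2.36 in the rdr-labelled library and 2.15, 2.20, 2.18 and 2.19 in 2-69, 2-20, 3-72 and 3-75. Outside both repeats it was 1.81, 1.55, 1.80, 1.73 and 1.77 in that order of libraries. In the 159-bp repeat it was 1.43, 1.15, 1.33, 1.41 and 1.00. Over the lines these were 2.18 ± 0.0215, 1.71 ± 0.113 and 1.22 ± 0.184 (SD, n = 4), so the ranges of the 178-bp and the 159-bp repeat did not overlap. The value of the 178-bp repeat rests on AT1G40104, described next. Without its 24 calls the ratio was 1.75 ± 0.0936 (SD, n = 4) over the remaining 76 calls, close to that outside both repeats. With the other units of the search, settings chosen after seeing the data like the removal of the gene, it was 1.89 and 1.75 with the gene and 1.66 and 1.54 without it, so no order between the 178-bp repeat and the calls outside is given. The 159-bp repeat stayed lowest in each library under these settings. Classes within a library share its depth, and the difference was not tested.

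In median depth, AT1G40104 stood far above the rest. It was singled out after its depth was seen. Of its calls, 14 were made in all 5 libraries, and their median depth was 425.5 reads in the rdr-labelled library, 435.5 in 2-69, 292.5 in 2-20, 182.5 in 3-72 and 247 in 3-75. As ratios to the single-copy depth these were 20.3, 16.4, 19.5, 16.6 and 19, against 1.92 to 2.24 for the other 168 calls made in all 5 libraries. The 14 calls were not uniformly deep. By library, the lowest ratio among them was 2.09 (3-72) to 3.2 (2-20) and the highest 32.1 (3-72) to 42.5 (rdr-labelled library). All 15 calls with at least 10 times the single-copy depth in every library that called them lay in this gene. Leaving the gene out gave 726 calls and a mean ratio over the lines of 1.61.

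**Figure D3:**
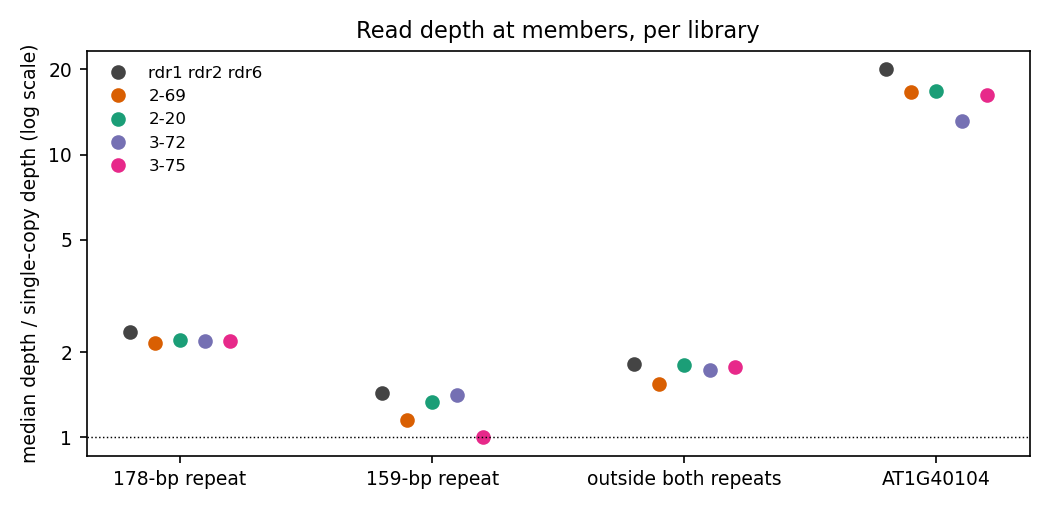
Median depth over single-copy depth (log scale) of the calls of each class in each of the 5 libraries, 1 point a library, with the dotted line at the single-copy depth. AT1G40104, whose calls are also counted in the 178-bp repeat, lies between 13.1 and 20.0 and the other classes between 1.00 and 2.36.

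The 5 calls made in all libraries with the highest median depth all lay in AT1G40104 and in the 178-bp repeat. They were T15082770A (median 613 reads), T15082262C (459), A15083845G (405), A15082395G (362) and C15082895T (343). For T15082770A, where 31 bases with the reference T occur at 1 place of the assembly and with the called A at 46, the depth was 893, 862, 613, 353 and 504 reads in the rdr-labelled library, 2-69, 2-20, 3-72 and 3-75. A15083845G, with the third highest median depth, has the reference base at 1 place and the called base at 3. Across the calls whose called base occurs elsewhere, Spearman's rho between the depth ratio and the number of places of both bases ran from -0.0171 in 2-69 (n = 362) to 0.0961 in 2-20 (n = 367). For C15082895T the called T occurs at 90 places and the reference C at 1. T15083247C lies 352 bp away at the same position of the repeat unit, 134, and has the opposite change, with the reference T at 90 places and the called C at 1. Both were called in all 5 libraries, C15082895T with shares of 43.9% to 49.1% and T15083247C with 46.2% to 59.2%. By contrast, G15082543T and G15085549T, 3006 bp apart and both at position 138 of the unit, have the same change.

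The share of reads with the called base was mostly below 50%. Its median was 35.5% in the rdr-labelled library, 36.7% in 2-69, 36.0% in 2-20, 40.0% in 3-72 and 40.0% in 3-75, over calls that ranged from 21.7% to 83.3%. The quartiles were 29.7% and 45.1% in the rdr-labelled library and 32.1% and 50% in 3-72. Shares over 50% were seen in 13.5% of the calls of the rdr-labelled library and in 19.9% ± 2.76 (SD, n = 4) of those of the lines. Depth was lower in 3 of the 4 lines than in that library, and its part in these shares was not tested. Among the 182 calls made in all 5 libraries, 47 were under 50% in every library, 22 were over 50% in every library and 99 were on both sides. The range of the share over the libraries had a median of 19.7 percentage points, from 3.90 to 52.1.

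The 5 widest ranges lay between 38.9 and 52.1 points. At A15245135T the called base had 5 reads and the reference base 11 in the rdr-labelled library (31.3%). It had 46.2% in 2-69, 60.9% in 2-20, 83.3% in 3-72 and 77.8% in 3-75, where 14 reads had the called base and 4 the reference base. C15204345A ranged over 41.8 points, T15186322C over 41.5, A15323105G over 41.4 and A15097731G over 38.9, with median depths of 39, 18, 14 and 19 reads. C15204345A was deeper than the median call in 4 of the 5 libraries, with 54, 54, 39, 17 and 25 reads. None of these 5 passed the test between libraries described next.

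Read numbers for the reference and called base were compared between libraries with two-sided Fisher's exact tests in all 10 pairs of libraries, with Benjamini-Hochberg adjustment over all variants on chromosomes 1 to 5 called in both. Such a test compares 2 libraries and not genotypes. Of the 750 calls, 4 (0.533%) passed at an adjusted p of 0.05 in at least 1 pair, against 2.73% of the 7103 variants tested in any pair and 1.90% of those never 1/1. By pair, the background of all variants called was 2.51%, 0.111%, 1.09% and 0.252% for the rdr-labelled library against 2-69, 2-20, 3-72 and 3-75, in which 2, 0, 1 and 0 of the calls passed. It was 1.93%, 1.23% and 2.16% for 2-69 against 2-20, 3-72 and 3-75, with 3, 0 and 0 calls. It was 0.387% and 0.287% for 2-20 against 3-72 and 3-75, with 1 and 0 calls, and 0.881% for 3-72 against 3-75, with 1 call. Over variants never 1/1, the share by pair ran from 0.0636% (rdr-labelled library against 2-20) to 1.855% (rdr-labelled library against 2-69). In the headers, the alignment names of the rdr-labelled library, 2-69 and 2-20 begin alike, and 5 of the 8 passing tests were in the 3 pairs of these. All 4 sites lay in AT1G40104, where the smaller of the read numbers compared had a median of 208, against 22 in the 3271 tests outside it. With at least 200 reads in both libraries, 8 of 83 tests of these calls passed (9.64%) and 332 of 3110 tests of all variants (10.7%). Depth was not matched above that floor, since the smaller read number had a median of 319 in those tests of the calls and 648 in those of all variants. The tests of all variants also include variants 1/1 in some library, which none of the calls are. With fewer reads, 0 of 3350 tests of the calls passed and 111 of 37851 tests of all variants (0.293%).

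T15083771A differed in 3 pairs. The called A had 412 reads in the rdr-labelled library, or 36.0% (exact 95% interval 33.2 to 38.8), and 909 reads in 2-69, or 51.4% (49.0 to 53.7). It had 321 reads in 2-20, or 38.4% (35.1 to 41.8), and 289 reads in 3-72, or 44.6% (40.7 to 48.5). It was not called in 3-75. The line 2-69 was highest, but its difference from 3-72 did not pass (adjusted p = 0.191). It exceeded the rdr-labelled library by 15.4 points (Fisher's exact test, adjusted p = 6.15e-14, where 2.51% of all variants passed) and 2-20 by 13.0 points (adjusted p = 8.77e-08, where 1.93% passed). The line 3-72 exceeded the rdr-labelled library by 8.65 points (adjusted p = 0.0368, where 1.09% passed). The 31 bases with the called A occur nowhere in the assembly. The calls in the rdr-labelled library and 2-20 had a quality of 44 and 19.1. A minimum of 50 removes both, so the 3 pairs cannot be tested there, and 2-69 against 3-72 remains without passing (adjusted p = 0.126).

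T15082770A also differed in 3 pairs. Its share was 67.7% (64.5 to 70.8) in the rdr-labelled library and 58.2% (54.8 to 61.6) in 2-69. The line 2-20 had 70.0% (66.2 to 73.7), 3-72 had 57.8% (52.4 to 63.1) and 3-75 had 65.3% (60.8 to 69.5). Here 2-69 and 3-72 were the low libraries. The line 2-20 exceeded 2-69 by 11.8 points (Fisher's exact test, adjusted p = 0.00049) and 3-72 by 12.2 points (adjusted p = 0.0432, where 0.387% of all variants passed), and the rdr-labelled library exceeded 2-69 by 9.50 points (adjusted p = 0.00329).

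The other 2 sites differed in 1 pair each. T15083247C had 59.2% in 2-69 and 46.2% in 2-20 (Fisher's exact test, adjusted p = 0.0303). T15082262C had 51.8% in 3-72 and 38.0% in 3-75 (adjusted p = 0.0479, where 0.881% of all variants passed), with 42.2%, 46.2% and 43.0% in the rdr-labelled library, 2-69 and 2-20. It no longer passed when the adjustment was made over variants never 1/1 (adjusted p = 0.0614). The difference at no site followed the genotype labels, since lines stood on both sides of the rdr-labelled library or overlapped its interval at each.

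**Figure D4:**
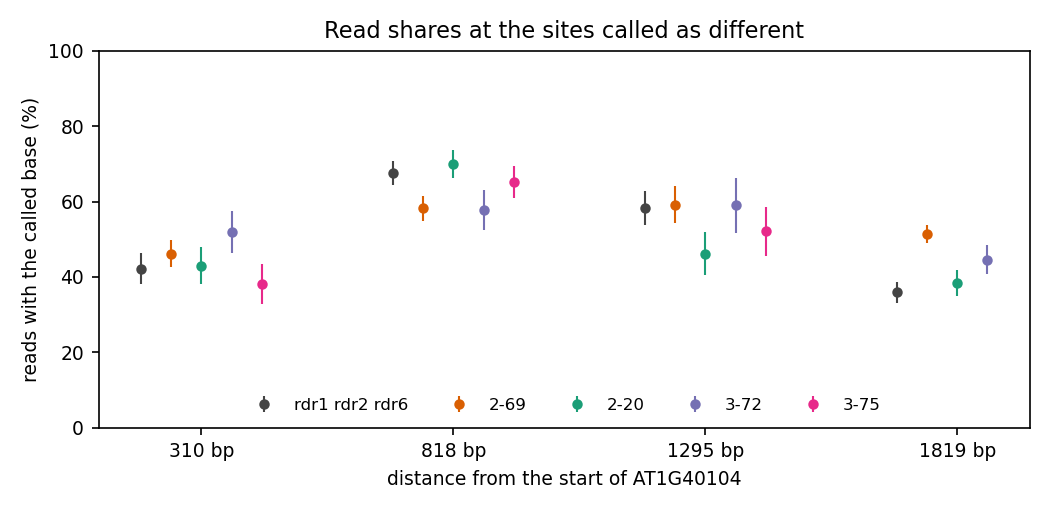
Percentage of reads with the called base (vertical axis) at the 4 sites that differed between libraries, by distance from the start of AT1G40104 in bp. Points are libraries and lines exact 95% intervals, which cover counting error only; 2-69 is highest at the last site with 51.4%, and 3-75 has no call there.

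A/T to G/C changes were the most frequent type, with 241 of 750 (32.1%, Wilson 95% interval 28.9 to 35.6). G/C to A/T changes followed with 166 (22.1%, 19.3 to 25.2), then A/T to T/A with 14.1%, A/T to C/G with 12%, G/C to T/A with 10.1% and G/C to C/G with 9.47%. Transitions made up 54.3%. The libraries had similar G/C to A/T shares, from 19.9% in the rdr-labelled library to 23.2% in 3-72, with overlapping intervals. The same share was 37.4% (34.0 to 41.0) in the 730 window variants called in 1 library alone. In shared never-1/1 variants it was 20.3% within 1 Mb of centromere 2, 23.3% around centromere 3 and 19.6% around centromeres 4 and 5. On the chromosome arms it was 25.2% (22.5 to 28.0). Transitions were 69.7% (66.7 to 72.5) of those arm variants. Around centromeres 2, 3, 4 and 5 they were 62.0%, 56.8%, 54.1% and 54.9%. The transition share of 54.3% is thus not particular to centromere 1. Of the 166 G/C to A/T changes, 15.7% were at CG, 22.9% at CHG and 61.4% at CHH sites, where H is A, C or T, against 11.4%, 12.7% and 75.9% of all cytosines of the window on both strands. The CHH share of such changes was 62.3% in the window variants called in 1 library. In shared never-1/1 variants it was 54.8% to 60.8% around centromeres 2 to 5 and 55.7% on the arms. It was 78.7% in arm variants that were 1/1 in all 5 libraries. Neighbouring calls are not independent, and the sets were not tested against each other.

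**Figure D5:**
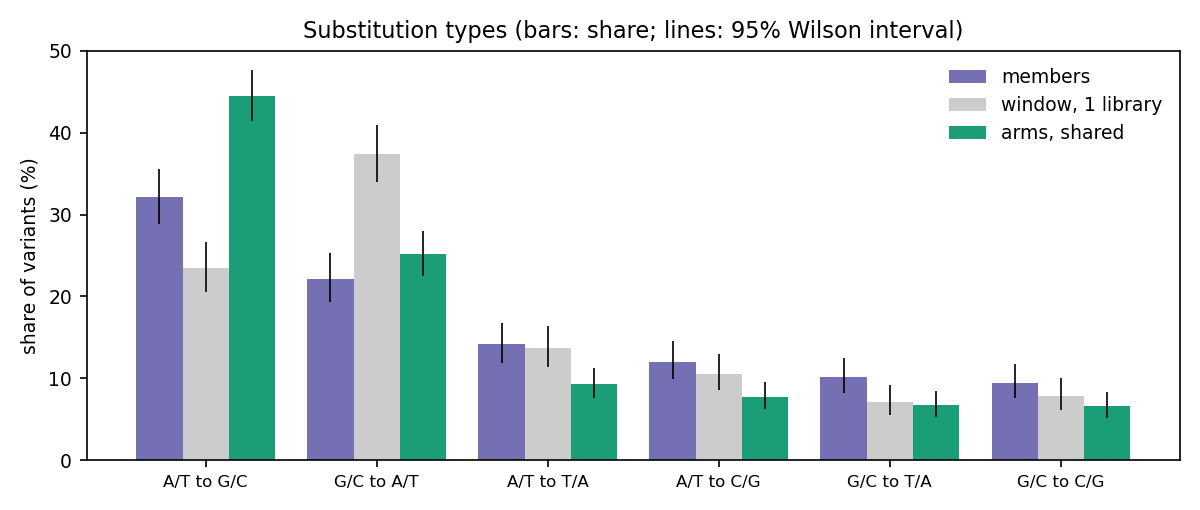
Percentage of each substitution type (vertical axis) among the 750 calls, the window variants called in 1 library and the shared never-1/1 variants of the arms, with Wilson 95% intervals. The calls have 22.1% G/C to A/T changes against 37.4% in the window variants called in 1 library.

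The called base was often present elsewhere in the reference. The 31 bases around the site with the called base in place occurred somewhere in the assembly for 528 of 750 calls (70.4%, Wilson 95% interval 67.0 to 73.6). With 21 and 51 bases this was 77.6% and 60.7%. The share was 56.4% (52.8 to 60.0) among window variants called in 1 library. Around centromeres 2, 3, 4 and 5 it was 68.9%, 67.4%, 75.6% and 73.4%. On the arms it was 78.5% for shared never-1/1 variants and 42.6% for variants that were 1/1 in all 5 libraries. The high share is therefore not shown to be particular to centromere 1. Of the 528, 306 had such places in the window only, 152 in the window and elsewhere and 70 elsewhere only. Where it lay on chromosome 1, the nearest such place was at a median distance of 5623 bp, and for 298 calls it was within 10 kb. By class, it occurred for 80.5% (72.9 to 86.3) of the calls of the 159-bp repeat, 66.0% (56.3 to 74.5) of those of the 178-bp repeat and 68.7% (64.5 to 72.5) of those outside both.

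For 402 calls (53.6%) the called base occurred at more places than the reference base. Their median read share was 36.7% in the rdr-labelled library and 37.0%, 37.5%, 41.7% and 41.7% in 2-69, 2-20, 3-72 and 3-75. Where the called base occurred at fewer places (105 calls), the medians were 30.4%, 35.7%, 31.9%, 34.6% and 35.6%, lower in each of the 5 libraries. Spearman's rho between the read share and the called base's fraction of these places was taken only over calls whose called base occurs elsewhere. It ran from 0.106 in 2-69 (n = 362) to 0.214 in the rdr-labelled library (n = 397), a weak relation between sites that share libraries and sequence. For 85 calls the reference bases occurred at 1 place and the called base nowhere else. These had depth ratios of 2.12, 2, 2.13, 2.18 and 1.62 and median read shares of 37.5% to 41.7%. In each library this median was at or above that of the 402 calls. For 137 calls the reference bases occurred at more than 1 place and the called base nowhere, with median shares of 33.8% to 38.5%. Both groups lie outside the correlation.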

How the data were processed

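The authors deposited 1 list of single-base calls per library, in VCF 4.1 made with samtools 0.1.19-44428cd, per the file headers. Bowtie, SAMtools, Bismark and the build TAIR10 are named in the submitters' processing notes. Call filters were not given in the sources used here. The deposited quality score is the caller's. Depth and the reads for each base are also the authors' values. Lists hold called sites only. Of 77 samples of the series, 5 were used. The lengths of the chromosomes and every reference base matched the RefSeq TAIR10.1 assembly, which gave the sequences and annotation. How reads from several repeat copies were placed was not tested, and it bears on every depth and read share. The mapping quality, a score for the placing of reads, was given as 20 for every call on chromosomes 1 to 5. It therefore cannot tell calls in repeats from others.

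Members and lists were chosen with earlier results of these data known. The named genes are those with 5 or more of the calls (up to 10). Named sites are the 5 deepest and the 5 of widest share range among calls in all 5 libraries, and those that differ in most pairs. The 3 fullest windows of 10 kb were also named. Chosen after seeing the data were the repeat units, the grouping by AT1G40104 and the classes of 31-base words. Repeat periods are the most frequent of the spacings of 100 to 250 bp at which most bases of 1-kb stretches were identical. Units came from the stretch of highest identity, a rule that replaced hand-picked units after those had given other counts, and were aligned with BLAST 2.17.0 (e-value at most 1e-05, at least 100 bp). Arms lie over 3 Mb from approximate centromere positions. Computations used Python 3.11.15, numpy 2.4.6, pandas 2.3.3, scipy 1.17.1 and matplotlib 3.10.9, and the Fisher script was tested on simulated data. Intervals cover counting error only. Median single-copy depths ran from 11 to 26.5 reads, which limits what a test at 1 site can show. Alternatives changed the call filters, libraries, matching, window, depth reference, word length and adjustment.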

Additional observations from a re-analysis of the deposited data

Results flagged for a closer look

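In 25 sets of values over the 4 lines, 2 had a line far from the others, and chance sets apart about 1 in 20. Calls with a strand-bias p-value under 0.05 from the authors' caller made up 9.32% in 3-72, against 16.4% to 17.6% in the other lines. The median depth ratio of all calls in AT1G40104 was 13.1 in 3-72, against 16.2 to 16.8 in the other lines. Over the 14 calls of that gene made in all 5 libraries it was 16.6 in 3-72 and 16.4 in 2-69, so the gap is not seen when the same sites are compared.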

How the results depend on the processing

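The number of calls fell from 750 to 193 when calls needed quality 50 and 10 reads, to 231 at or above the median quality of the library, to 493 for calls in 3 or more libraries and to 182 for all 5. Leaving out 1 library gave 625 to 677. The mean depth ratio of 1.68 over the lines became 1.98 and 2.13 under the 2 quality settings, 1.44 with at least 10 reads, 2.15 for calls in all 5 libraries and 1.39 against all arm calls, and 1.64 to 1.74 without 1 library. The ratio stayed above 1 in all of these. Under the quality and read filters the single-copy depth was also taken from the filtered calls. Both parts of the ratio could therefore change. G/C to A/T changes, 22.1% of the calls, were 17.6% for calls in all 5 libraries and 21.1% to 23.7% without 1 library. Transitions stayed between 52.8% and 56.3%. The share with the called base elsewhere (70.4%) was 74.7% for calls in all 5 libraries, 77.6% with 21 bases and 60.7% with 51, and 69.6% to 71.2% without 1 library. The 4 calls with differing read shares became 2 at an adjusted p of 0.01, 0 with a difference of at least 20 points and 0 without AT1G40104, and 3 to 4 without 1 library. Calls in the 178-bp repeat numbered 173 and 156 instead of 100 with other units. Its depth ratio of 2.18 over the lines became 1.89 and 1.75 with these and 1.75 without AT1G40104. The settings without AT1G40104 and with other units were chosen after seeing the data. The causes of these changes were not tested. No paired analysis was possible because the groups compared share fewer than 2 replicate numbers.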
